A study of Mus musculus with 8 samples.

Results

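Cgas encodes cyclic GMP-AMP synthase, the enzyme that binds double-stranded DNA in the cytosol and makes the second messenger cGAMP. The messenger binds STING, which recruits the kinase TBK1, and the transcription factors IRF3 and NF-kB then turn on type I interferon and inflammatory genes. Fibroblasts carry the whole pathway, and cGAS is also found in the nucleus, bound to nucleosomes. Reads from a deleted stretch are lost from a knockout's libraries, while a small deletion or an inserted stop leaves the rest of a locus to be read.

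Chromatin accessibility was described here at the Cgas locus and over the 1 Mb around it, in an ATAC-seq study of primary lung fibroblasts of the mouse. ATAC-seq counts the places where a transposase could enter nuclear DNA. The study compared cultures from 4 cGAS KO mice (replicates F1, F2, M1 and M2) with cultures from 4 WT mice carrying the same replicate names, 2 of each genotype labelled female and 2 labelled male. All 8 cultures were grown at 5% O2. No treatment is given in the labels, and the age of the mice, the knockout allele and the strain are not given in the sources used here.

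The deposited table has a row for each open chromatin region (OCR, a peak) and for each annotated repeat element, with coordinates in GRCm39. Members were the 137 OCRs, of 185268 in the table, whose middle lies on chromosome 9 from 77800000 to 78800000, called the window below. To these were added the 92 repeat rows, of 4650627, in the interval from 78330000 to 78360000. Cgas lies near 78340000 to 78350000, and this inner stretch of 10 kb was taken to hold the gene. No annotation in GRCm39 was used, so exons were not located, and OCRs are named by position alone. The identity of the cells was not checked against marker genes here, for the same reason.

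In RefSeq, the protein-coding genes next to Cgas are Ddx43 (a DEAD-box RNA helicase), Ooep, Dppa5a, Gsta2 (a glutathione transferase) and Omt2b on one side. On the other are Mto1 (which modifies mitochondrial tRNA), Eef1a1 (the translation elongation factor), Slc17a5 (a lysosomal sialic acid transporter), Cd109 and Col12a1 (a collagen of the extracellular matrix). Ddx43 and Mto1 are the direct neighbours, and Mto1 is read from the strand opposite to that of Cgas. The 250 bases before the start of Cgas are shown so that the letters just upstream of the gene can be read. No genome of the table's build was used, so no OCR sequence is printed. The sequence is that of RefSeq in build GRCm38.p6, chr9:78443238-78443487, minus strand, and these coordinates cannot be set against the GRCm39 positions given elsewhere. It reads 5′ to 3′ towards the gene, and capitals mark CpG dinucleotides.
Cgas upstream: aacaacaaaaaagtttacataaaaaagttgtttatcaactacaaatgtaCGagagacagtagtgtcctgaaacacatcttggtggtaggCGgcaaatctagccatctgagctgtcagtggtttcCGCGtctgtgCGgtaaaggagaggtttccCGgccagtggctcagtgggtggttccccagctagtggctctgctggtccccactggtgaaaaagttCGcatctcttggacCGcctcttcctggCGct
The stretch is 50% G or C and holds 9 CpG dinucleotides, against a median of 6 over 32536 RefSeq mouse promoters of the same length, of which 59.4% hold fewer. Of 6 motifs searched on both strands, none was found in these letters. They were TATAAA (in 12.3% of the promoters), CCAAT (33.8%), CCGCCC (33%), the ETS motif CCGGAAG (6.95%), the AP-1 motif TGANTCA (6.73%) and the GAS core TTCNNNGAA of STAT factors (7.04%).

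Library totals ranged from 43.2 to 72.9 M counts and totals over OCRs from 28.0 to 55.3 M, and the median OCR of the window held 77 to 156 counts per library. KO M2 was the shallowest library and had the lowest share of its counts in OCRs, 64.6%, against 65.1 to 76.4% in the other 7. The library labelled KO F2 went against its sex label. Its 15 OCRs in the first 2 Mb of the Y chromosome held 24.9 CPM, against 0.0333 to 0.0582 CPM in the other 3 libraries labelled female and 31.6 to 43.4 CPM in those labelled male. It is kept under its label below, and values without it are given where a result rests on it. Levels are given as CPM, counts scaled to each library's OCR total with factors from the trimmed mean of M-values (TMM). An OCR or repeat row was called where the adjusted p of edgeR's quasi-likelihood test was under 0.05, after Benjamini-Hochberg adjustment over the whole table.

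The deposited counts at the Cgas interval were not lost in the knockout. Over all 97 rows of the interval, OCRs and repeats together, the KO libraries F1, F2, M1 and M2 held 40.7, 47.1, 36.55 and 51.84 CPM. The WT libraries F1, F2, M1 and M2 held 37.83, 36.38, 34.46 and 36.28 CPM. The KO mean of 44.05 ± 6.77 (SD, n = 4) was 1.22-fold the WT mean of 36.24 ± 1.38 (SD, n = 4), and the groups overlapped, with KO M2 and KO F2 the highest and KO M1 among the WT values. The log2 ratio of the mean CPM, KO over WT, was 0.28, and it was 0.25 without KO F2 and 0.19 without KO M2. In bulk chromatin, a smaller share of cells with an open site and less opening per cell cannot be told apart. The rows of the interval cover 52.4% of its bases, and read ends that fall between rows were not counted.

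Most of these counts came from peaks. The 5 OCRs of the interval held 33.9 ± 3.98 CPM in KO and 28.13 ± 1.31 CPM in WT (SD, n = 4 each), a ratio of 1.21, and again the groups overlapped. The highest of them, 9:78349688-78350821, is 1134 bp long and crosses the upper end of the inner stretch. It held 16.81, 16.14, 14.34 and 19.23 CPM in KO F1, F2, M1 and M2, and 15.35, 13.81, 13.36 and 16.07 CPM in WT F1, F2, M1 and M2. Every library of both genotypes was open there, and the groups overlapped. The log2 fold change, KO minus WT, was 0.18 (SE 0.13, 95% interval -0.10 to 0.46, edgeR adjusted p = 0.746), so that a 2-fold difference in either direction lies outside the interval. Positions below are given as distances from the middle of this OCR.

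**Figure D1:**
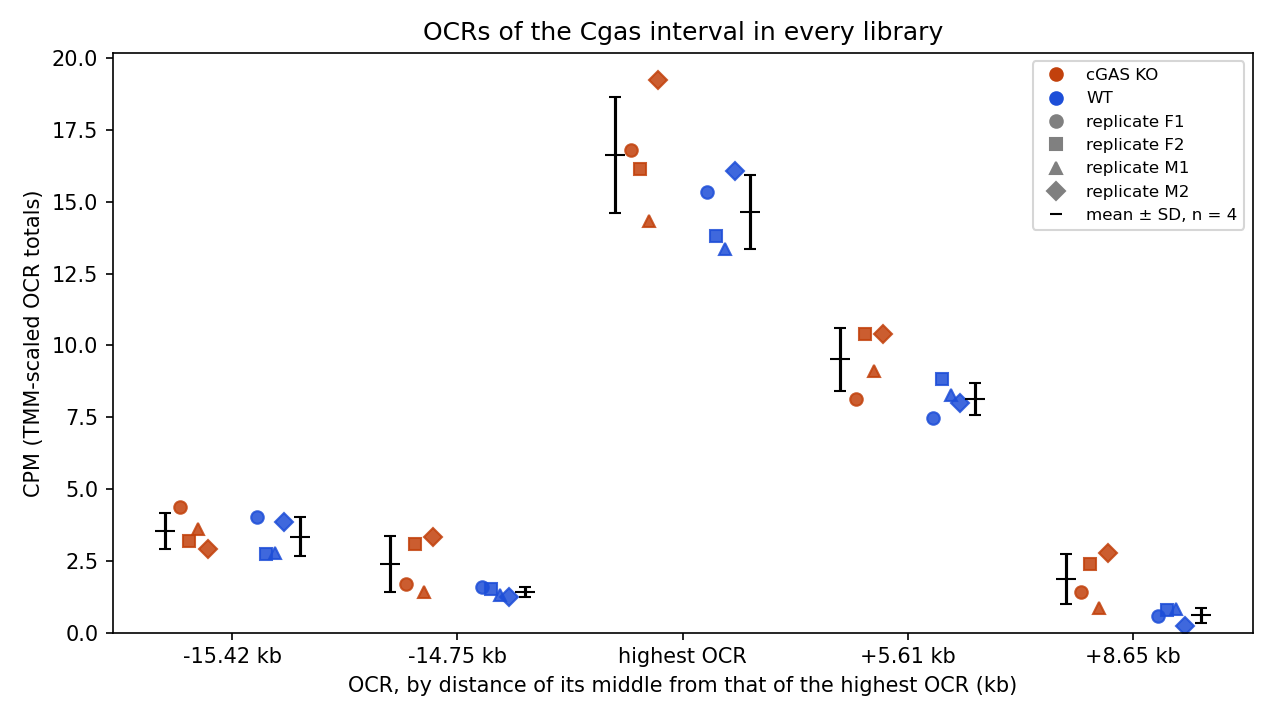
CPM (vertical axis) of the 5 OCRs of the Cgas interval in each of 8 libraries, ordered by distance from the highest OCR. Points are libraries, marked by genotype and replicate, and bars are mean ± SD of 4. The highest OCR lies at 13.36 to 19.23 CPM in every library, and only the OCR at +8.65 kb has KO libraries that all lie above the WT libraries.

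The other OCRs of the interval were also present in all KO libraries. OCR 9:78355289-78356432, at +5.61 kb, held 8.143, 10.41, 9.12 and 10.40 CPM in the KO libraries F1, F2, M1 and M2, and 7.465, 8.818, 8.265 and 7.992 CPM in the WT libraries in the same order. The groups overlapped (log2 fold change 0.23, SE 0.15, edgeR adjusted p = 0.708). OCR 9:78334491-78335183, at -15.42 kb, held 4.368, 3.197, 3.603 and 2.924 CPM in KO and 4.013, 2.743, 2.775 and 3.847 CPM in WT, with the libraries of both genotypes mixed (log2 fold change 0.08, SE 0.23, edgeR adjusted p = 0.976). The adjoining OCR 9:78335195-78335812, at -14.75 kb, held 1.677, 3.076, 1.406 and 3.336 CPM in KO and 1.589, 1.533, 1.296 and 1.231 CPM in WT. There KO F2 and KO M2 stood above all others, and KO F1 and KO M1 lay near the WT libraries. Its log2 fold change was 0.75 (SE 0.33), with an unadjusted p of 0.0445 and an edgeR adjusted p of 0.489. Without KO F2 the log2 fold change was 0.58 (unadjusted p = 0.146), and without KO M2 it was 0.42 (unadjusted p = 0.214).

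The faintest OCR of the interval had the largest fold difference of the window. OCR 9:78358724-78359088, a peak of 365 bp at +8.65 kb, held 1.41, 2.385, 0.863 and 2.762 CPM in KO F1, F2, M1 and M2, and 0.5616, 0.7774, 0.8103 and 0.2308 CPM in WT F1, F2, M1 and M2. All KO libraries lay above all WT libraries, though KO M1 exceeded the highest WT library by little. The level was 1.855 ± 0.873 CPM in KO and 0.595 ± 0.267 CPM in WT (SD, n = 4 each), 3.1-fold higher in KO (log2 1.63, SE 0.48, 95% interval 0.56 to 2.70). The unadjusted p was 0.00676 and the edgeR adjusted p 0.323, so the OCR was not called in edgeR. A fit with 1 surrogate variable gave a log2 fold change of 1.70 (adjusted p = 0.0108), and a fit with 2 gave 0.61 (unadjusted p = 0.301, adjusted p = 1). Without KO F2 the log2 fold change was 1.49 (edgeR unadjusted p = 0.0196), and without KO M2 it was 1.19 (unadjusted p = 0.0365). The OCR holds 2 repeat elements, which share its read ends. With their counts added back, the level was 2.924 ± 1.345 CPM in KO and 0.972 ± 0.443 CPM in WT (SD, n = 4 each), 3.01-fold higher in KO, and the genotypes still did not overlap.

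Repeat rows gave the only counts inside the gene stretch outside peaks. In the gene stretch, from 78340000 to 78350000, the 30 repeat rows outside OCRs held 138, 144, 164 and 116 counts in KO F1, F2, M1 and M2, and 145, 137, 147 and 169 counts in WT F1, F2, M1 and M2. Scaled to depth, these were 3.215, 3.487, 2.918 and 4.161 CPM in KO and 3.972, 3.043, 2.978 and 3.251 CPM in WT. The KO mean of 3.446 ± 0.531 CPM was 1.04-fold the WT mean of 3.311 ± 0.456 CPM (SD, n = 4 each), with the libraries of both genotypes mixed. Over the whole interval, the 92 repeat rows held 10.15 ± 2.85 CPM in KO and 8.10 ± 0.89 CPM in WT (SD, n = 4 each), and the groups overlapped. KO M2 (13.18 CPM) and KO F2 (11.89 CPM) were again the highest libraries there.

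Row by row, 77 of the 92 repeats had counts in both genotypes. Another 5 had no count in any library. In 5 rows the KO libraries summed to 0 while the WT libraries held 17 counts in all, and in 5 others the WT libraries summed to 0 while the KO libraries held 5 counts in all. A sum of 0 over 4 libraries allows up to 3 counts by sampling alone, and these rows were picked for their zeros, so they are given as counts without a test. The share of all repeat rows that are empty in 1 genotype alone was not counted here, so these rows cannot be set against the whole table. The rows empty in KO were a B3 element at 78331710-78331874 (1, 2, 1 and 4 counts in WT F1, F2, M1 and M2), a B3A element at 78345078-78345230 (1, 1, 1 and 2 counts), a B1F element at 78344998-78345082 (1, 0, 1 and 0 counts), and 2 short rows with 1 WT count each, of G-rich sequence at 78337628-78337672 and of a simple repeat at 78346544-78346551. The rows empty in WT were 2 simple repeats at 78337525-78337553 and 78345318-78345352, another at 78353826-78353867, A-rich sequence at 78357474-78357513 and an ID_B1 element at 78358484-78358503, each with 1 KO count. Among rows too low to be tested, the B3 and B3A elements empty in KO had genotypes that did not overlap. So did an ID_B1 element at 78330994-78331043 (4 counts in KO, 14 in WT) and a B3 element at 78333546-78333742 (14 in KO, 7 in WT). The share of all untested repeat rows without overlap was not counted here either. These rows rest on few counts and cannot be read as genotype differences.

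The B1F and B3A elements overlap each other and lie in the gene stretch. Together they held 7 counts in WT and none in KO. Rows on either side had KO counts: a B1_Mur1 element at 78344188-78344319 held 6 in KO and 6.5 in WT, and another at 78345372-78345496 held 4 in KO and 1 in WT. The bases from 78344320 to 78344997, just before the B1F element, belong to no row and form the widest uncovered gap of the gene stretch, 678 bp. Rows cover 50.3% of the gene stretch, so a loss confined to uncovered bases would not be seen in this table.

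**Figure D2:**
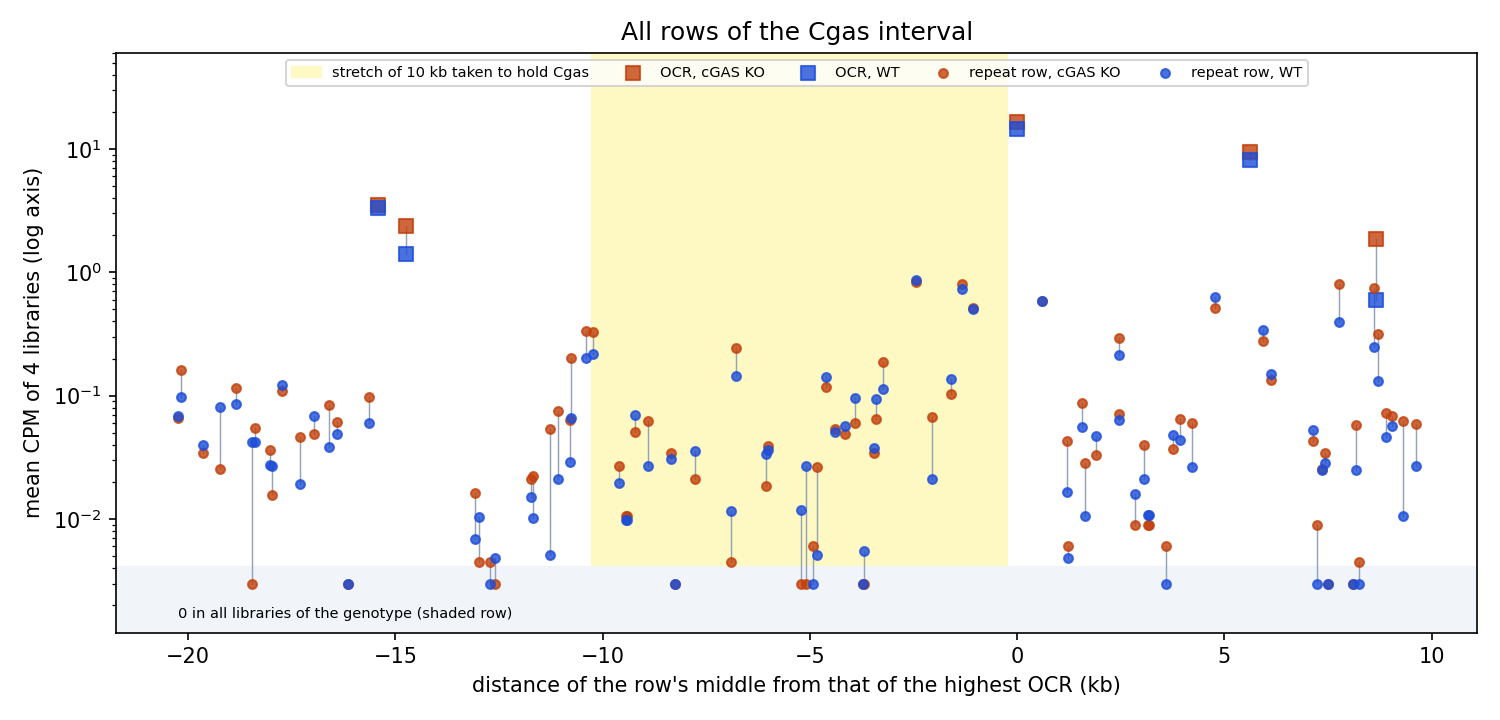
Mean CPM of 4 libraries (vertical, log axis) for each of the 97 rows of the Cgas interval, against the distance of the row's middle from that of the highest OCR (horizontal, kb), by genotype. Squares are OCRs, circles repeat rows, grey lines join both genotypes of a row, and rows at 0 sit in the shaded band. KO and WT values lie close in the highest rows of the gene stretch (yellow), and some faint rows differ more, in both directions. In the interval, 5 repeat rows are at 0 in KO alone and 5 at 0 in WT alone.

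Of the 92 repeat rows, 13 passed the count filter and were tested, and 0 of them were called, against 0% of the 478926 repeat rows tested in the whole table. Unadjusted p was under 0.05 in 1 of the 13, against 3.42% of all repeat rows tested, and the genotypes did not overlap in 1, against 2.38% (1.61% with KO higher). Both counts refer to the RSINE1 element at 78358804-78358929, which lies inside the OCR at +8.65 kb and shares its read ends. It held 0.4893, 1.029, 0.3915 and 1.094 CPM in KO F1, F2, M1 and M2, and 0.2192, 0.3665, 0.2937 and 0.1058 CPM in WT F1, F2, M1 and M2 (log2 fold change 1.47, SE 0.42, edgeR adjusted p = 1). The B1_Mus2 element at 78350779-78350922, across the upper edge of the highest OCR, held 0.586 ± 0.204 CPM in KO and 0.581 ± 0.061 CPM in WT (SD, n = 4 each; log2 fold change -0.10, SE 0.33, edgeR adjusted p = 1). A pair of RMER10B long terminal repeats and an RLTR19-int element held most of the counts in the gene stretch. RLTR19-int at 78347069-78348578 held 133 counts in KO and 153 in WT (log2 fold change -0.16, SE 0.33), and RMER10B at 78348756-78349098 held 131.5 and 132.5 (log2 fold change 0.04, SE 0.33).

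Scaled to depth, the summed levels over the window were closer between the genotype means than among libraries of a genotype. The 137 OCRs, those of the interval included, summed to 793.7, 784.5, 724.2 and 767.1 CPM in KO F1, F2, M1 and M2, and to 726, 751.9, 770.5 and 770.2 CPM in WT F1, F2, M1 and M2. The KO mean was 1.02-fold the WT mean, and the groups overlapped. The 132 OCRs outside the interval held 733.5 ± 29.1 CPM in KO and 726.5 ± 21.5 CPM in WT (SD, n = 4 each), a ratio of 1.01, again with overlap. The median log2 fold change over the 137 OCRs was 0.03, against 0 over all OCRs, and single OCRs ranged from -0.76 to 1.63. For 85 of the 137 OCRs the 95% interval excluded a 2-fold difference in both directions, 62% of them, against 60.5% of all OCRs. In length (median 531 bp against 519 bp), level (median 2.62 CPM against 2.33 CPM) and overlap with repeats (63.5% against 62%), the window's OCRs lay close to the table as a whole.

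No OCR of the window was called between genotypes in edgeR, against 0% of the 185267 OCRs tested in the whole table, and the lowest adjusted p in the window was 0.323. limma also called 0. DESeq2 called 1, against 2646 of the 181676 OCRs it tested in the whole table. A fit with 1 surrogate variable called 11 of the 137, of which 9 were higher in KO. Over the whole table it called 10792 of 185267, of which 7792 were higher in KO. A fit with 2 surrogate variables called 0 in the window and in the whole table. By edgeR, unadjusted p was under 0.05 in 18 of the 137 (13.1%), against 9.88% of all OCRs tested and 9.92% on chromosome 9. Of these 18, 13 were higher in KO, a direction that held 6.42% of all OCRs tested, and 5 were lower in KO, a direction that held 3.45%. Without KO M2 the count was 9 (6.57%), against 5.2% of all OCRs in the same fit. Without KO F2 it was 19 (13.9%), against 12.1% of all. The window's share was not above that of all OCRs in every fit. It was 15.3% against 15.3% in limma and 12.4% against 12.3% without WT F1. With KO F2 entered as male, it was 12.4% against 12.8%. The genotypes did not overlap in 10 of the 137 (7.3%), against 5.98% of all OCRs, with 5 higher in KO (3.47% of all) and 5 lower in KO (2.51% of all). The share without overlap is near that of the whole table.

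The window was also divided by distance, to be read against the 9.88% of all OCRs with an unadjusted p under 0.05 and the 5.98% without overlap. Within 100 kb of the highest interval OCR lay 30 OCRs, of which 8 (26.7%) had an unadjusted p under 0.05 (7 higher in KO) and 4 (13.3%) had genotypes that did not overlap. Their median log2 fold change was 0.17, and 21 of the 30 were above 0. From 100 to 300 kb away lay 56 OCRs, of which 1 (1.79%) had an unadjusted p under 0.05 and 2 (3.57%) had genotypes that did not overlap, with a median of 0.00. Beyond 300 kb lay 51 OCRs, of which 9 (17.6%) had an unadjusted p under 0.05 (6 higher in KO) and 4 (7.84%) had genotypes that did not overlap, with a median of -0.01. The distance limits were set with results known, and the difference between the zones was not tested.

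**Figure D3:**
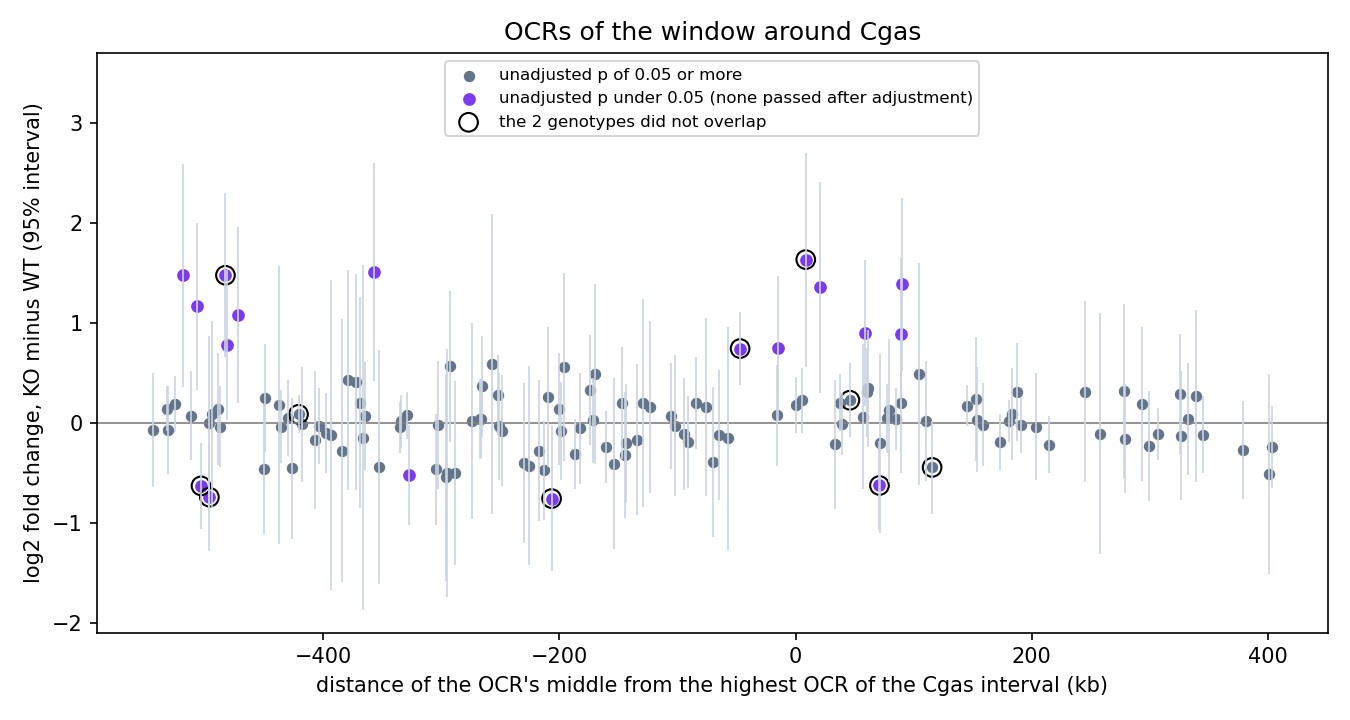
Log2 fold change, KO minus WT (vertical axis, with 95% intervals), of the 137 OCRs of the window against distance from the highest OCR of the Cgas interval (horizontal axis, kb). Purple points are the 18 with an unadjusted p under 0.05, circles mark the 10 whose genotypes did not overlap, and most points lie near 0 on both sides of the gene.

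The OCR with the lowest p in the window was 9:78302814-78303759, at -46.97 kb. It held 8.457, 8.888, 7.936 and 8.52 CPM in KO F1, F2, M1 and M2, and 6.301, 5.509, 4.811 and 3.799 CPM in WT F1, F2, M1 and M2. The KO libraries lay close together and all above the WT libraries, which spread more widely. The level of 8.45 ± 0.39 CPM in KO was 1.67-fold that of 5.11 ± 1.06 CPM in WT (SD, n = 4 each; log2 0.74, SE 0.17, unadjusted p = 0.0011, edgeR adjusted p = 0.323). DESeq2, an alternative, gave the same OCR an adjusted p of 0.00978, the sole call of that tool in the window among 2646 in the whole table, and a fit with 1 surrogate variable an adjusted p of 0.0107. With 2 surrogate variables its log2 fold change was 0.34 (unadjusted p = 0.195, adjusted p = 1).

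The next 3 by p with a higher KO mean outside the interval were fainter. OCR 9:77867153-77867402, at -483 kb, held 0.8154, 0.9324, 0.4182 and 0.9507 CPM in KO F1, F2, M1 and M2, and 0.3287, 0.2777, 0.3038 and 0.1827 CPM in WT F1, F2, M1 and M2. All KO libraries lay above all WT libraries, with a fold of 2.78 (edgeR adjusted p = 0.323). OCR 9:78440599-78440922, at +90.51 kb, held 0.7455, 2.155, 1.263 and 1.865 CPM in KO and 0.5205, 0.7997, 0.5469 and 0.4424 CPM in WT, in the same order. KO F1 lay below the highest WT library, and the fold was 2.61 (edgeR adjusted p = 0.323). OCR 9:77843184-77843571, at -506.9 kb, held 0.9552, 2.155, 1.361 and 1.991 CPM in KO and 0.4657, 0.8774, 0.9723 and 0.5386 CPM in WT. KO F1 again lay within the WT range, and the fold was 2.24 (edgeR adjusted p = 0.337).

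KO F2 and KO M2 stood out in these OCRs. Among the 13 OCRs of the window with an unadjusted p under 0.05 and a higher KO level, KO F2 and KO M2 were the highest pair of libraries in 11, and KO F1 and KO M2 in the other 2. Over the whole table the former pair was highest in 7202 of 11903 such OCRs, 60.5%. These values come from the contrast that chose the OCRs, and the part of these libraries in the differences was not tested beyond leaving each out.

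The 5 OCRs with the lowest p and a lower KO level differed by 1.44- to 1.69-fold. OCR 9:77846083-77847117, at -503.7 kb, held 3.565, 2.797, 3.648 and 3.462 CPM in KO F1, F2, M1 and M2, and 5.287, 3.887, 5.368 and 6.472 CPM in WT F1, F2, M1 and M2, with all WT libraries above all KO libraries and a 1.55-fold higher WT level (edgeR adjusted p = 0.329). OCR 9:78420949-78421744, at +71.09 kb, held 5.114, 6.43, 6.175 and 4.144 CPM in KO and 7.328, 7.363, 8.528 and 10.92 CPM in WT. The genotypes did not overlap there either, and WT was 1.54-fold higher (edgeR adjusted p = 0.336). OCR 9:77853444-77853958, at -496.6 kb, held 1.124 ± 0.120 CPM in KO and 1.874 ± 0.150 CPM in WT (SD, n = 4 each), without overlap and 1.67-fold higher in WT (edgeR adjusted p = 0.337).

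The remaining pair of the 5 was weaker. OCR 9:78143439-78143752, at -206.7 kb, held 0.4427, 0.2664, 0.4626 and 0.4305 CPM in KO and 0.6575, 0.7774, 0.5874 and 0.6924 CPM in WT, without overlap and 1.69-fold higher in WT, on 11 to 36 counts per library (edgeR adjusted p = 0.48). OCR 9:78022967-78023418, at -327.1 kb, held 5.428, 5.037, 4.395 and 3.552 CPM in KO and 4.438, 7.286, 7.657 and 7.04 CPM in WT. WT F1 lay within the KO range, and WT was 1.44-fold higher (edgeR adjusted p = 0.484).

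Genotypes also did not overlap in 3 OCRs with an unadjusted p above 0.05. Of these, 9:77928285-77930081 at -421.1 kb (27.38 ± 0.43 CPM in KO and 25.81 ± 0.73 CPM in WT, SD, n = 4 each) and 9:78465646-78466260 at +115.7 kb (2.781 ± 0.514 CPM in KO and 3.790 ± 0.316 CPM in WT) were picked after their values were seen. The other one, 9:78395818-78396758, is described below.

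**Figure D4:**
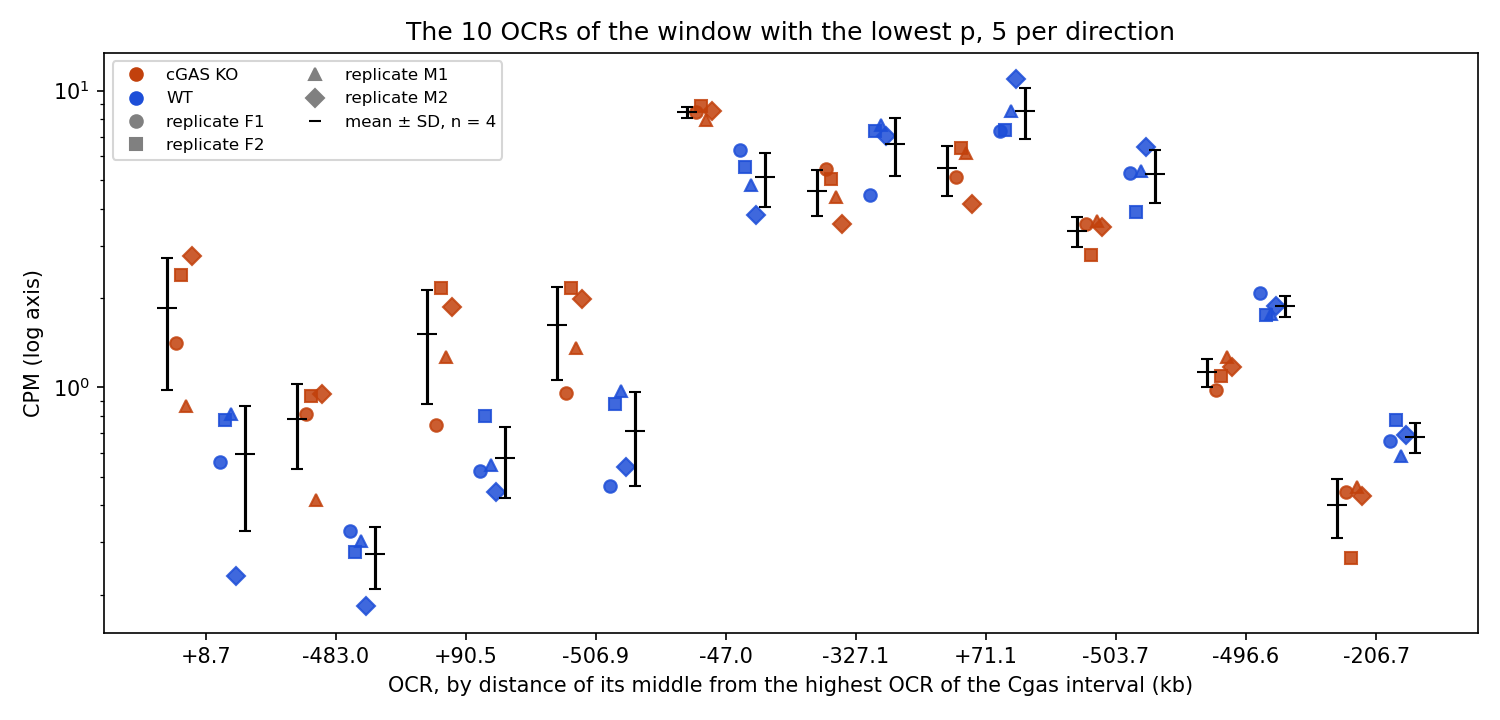
CPM (vertical, log axis) in each of 8 libraries for the 5 OCRs of lowest p that were higher in KO and the 5 that were lower, labelled by distance from the highest OCR of the Cgas interval in kb. Points are libraries, and bars are mean ± SD of 4. KO F2 and KO M2 are the highest libraries in the 5 OCRs higher in KO (left), of which the one at -46.97 kb holds 7.936 to 8.888 CPM in KO and the others under 3 CPM.

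The most open OCRs of the window did not separate the genotypes. They were 9:77816986-77818632 (41.51 ± 3.08 CPM in KO, 37.57 ± 3.20 CPM in WT), 9:78494777-78496116 (41.39 ± 3.43 and 36.67 ± 1.71 CPM) and 9:78388770-78389936 (37.20 ± 5.22 and 37.40 ± 5.54 CPM; SD, n = 4 each). Per kb of length, they held 24.01, 29.12 and 31.96 CPM, against 13.79 CPM per kb for the highest OCR of the Cgas interval. Their log2 fold changes were 0.14 (SE 0.10), 0.17 (SE 0.09) and -0.01 (SE 0.14), with edgeR adjusted p-values of 0.753, 0.62 and 0.997.

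The OCRs whose levels followed the highest interval OCR most closely were picked by Pearson's r over the 8 libraries in log2 CPM, which share depth and scaling, so r is given as a description. The closest was 9:78395818-78396758 at +46.03 kb (r = 0.886). It held 5.592, 5.437, 5.454 and 6.529 CPM in KO F1, F2, M1 and M2, and 5.41, 4.576, 4.598 and 5.049 CPM in WT F1, F2, M1 and M2, with KO M2 highest, as in the interval OCR. All KO libraries lay above WT by a small margin (log2 fold change 0.23, SE 0.17, edgeR adjusted p = 0.768). Next came 9:78439776-78440099 at +89.68 kb (r = 0.825), 9:78504161-78504477 at +154.1 kb (r = 0.81), 9:77868698-77869057 at -481.4 kb (r = 0.725) and 9:78335195-78335812 in the interval itself (r = 0.705). Of the 3 lying outside the interval, 9:78439776-78440099 held 2.575 ± 0.656 CPM in KO and 1.425 ± 0.689 CPM in WT (SD, n = 4 each; edgeR adjusted p = 0.412), 9:77868698-77869057 held 1.230 ± 0.367 and 0.729 ± 0.214 CPM (edgeR adjusted p = 0.486), and 9:78504161-78504477 held 1.492 ± 0.094 and 1.457 ± 0.118 CPM (edgeR adjusted p = 0.992).

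An interaction term in edgeR asked whether the genotype difference depended on the labelled sex. No OCR of the window was called, against 0% of all OCRs tested, and the lowest adjusted p in the window was 1. Unadjusted p was under 0.05 in 5 of 137 OCRs, against 1.55% of all OCRs tested. The 5 were 9:77805419-77806428, 9:78054513-78055141, 9:78162932-78163903, 9:78196381-78196728 and 9:78255390-78256275, named after their values were seen, with interaction terms (male minus female) from -2.19 to -0.77 on the log2 scale. None of them lies in the Cgas interval. Without KO F2, 9 OCRs of the window had an unadjusted p under 0.05, 0 were called, and the lowest adjusted p was 0.972. Over all OCRs, the number with an unadjusted p under 0.05 went from 2867 to 4981 of 185267.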

How the data were processed

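The deposited table holds estimated counts made by the authors with featureCounts 2.0.3 over peaks and repeats together, per the file headers. Only the 5′ end of a read was counted, for pairs with both mates aligned, and an end lying in more than 1 region was split evenly among them. Per the submitters' processing notes, Bowtie2, Trim Galore, MACS2, featureCounts, SAMtools, Picard and bedtools were used with build GRCm39, in no stated order. Transposase shift, handling of reads with several matches and peak merging are not given in the sources used here.

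Counts were rounded and tested with edgeR 4.0.16 (R 4.3.3, quasi-likelihood, robust) on all 8 libraries with the sex label as covariate, filterByExpr and TMM. OCRs and repeat rows were fitted and adjusted separately over the whole table. The repeat fit took whole table totals as library sizes, with TMM factors from OCRs and tested repeat rows together. The CPM of repeat rows kept the OCR scaling, so a row's CPM and log2 fold change rest on different library sizes. Sums over rows got no test. CPM used unrounded counts, and log2 CPM a prior count of 2. The scripts were tested on simulated data. Alternatives were DESeq2 1.42.0, limma 3.58.1, sva 3.50.0, other scalings and filters, no sex term, a replicate block and leaving out each library. A fit with KO F2 entered as male was chosen after seeing the data.

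Members and lists were chosen with earlier results of these data known. Named by rule were all OCRs of the interval, the 5 of lowest p higher and the 5 lower in KO, the 3 most open and the 5 most like the interval's highest OCR. Also named by rule were tested repeat rows of the interval without overlap between genotypes or across that OCR. Gene-start OCRs, the cGAS-STING gene list and cell type markers need a GRCm39 annotation and were not analysed here. The limit given for counts of 0 covers counting error only.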

Additional observations from a re-analysis of the deposited data

Results flagged for a closer look

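In OCR 9:78143439-78143752, KO F2 lay far below the other KO libraries, at 0.2664 CPM against 0.4305 to 0.4626 CPM, on 11 counts. In OCR 9:78395818-78396758, the OCR most like the highest one of the Cgas interval, KO M2 stood far above the other KO libraries, at 6.529 CPM against 5.437 to 5.592 CPM. Chance marks about 1 in 20 groups of 4 libraries in this way. Each genotype was scanned in all OCRs and repeat rows named by rule and in the main sums, so a few marks would come by chance alone.

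Summed over the 137 OCRs of the window, the libraries labelled female and male moved in opposite directions. Both KO libraries labelled female lay above both WT libraries labelled female, by 50.15 CPM on average, and both KO libraries labelled male lay below both WT libraries labelled male, with a KO minus WT difference of -24.7 CPM. The difference between the sexes was not tested for this sum. KO F2, which went against its sex label on the Y chromosome, is in the former pair. Without it, KO F1 (793.7 CPM) still lay above both WT libraries labelled female (726 and 751.9 CPM). Placed with the male libraries, KO F2 (784.5 CPM) would lie above both WT libraries labelled male (770.5 and 770.2 CPM). The KO libraries would then lie on both sides of those WT libraries.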

How the results depend on the processing

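edgeR called 0 of all OCRs and 0 of the window's OCRs under every alternative in edgeR and limma except the fit with 1 surrogate variable, which called 10792 in all and 11 in the window. DESeq2 called 2646 in all and 1 in the window, and 2 surrogate variables gave 0. OCRs of the window with an unadjusted p under 0.05 numbered 32 with 1 surrogate variable (23.4%, against 20.9% of all OCRs). With 2 surrogate variables they numbered 7 (5.11%, against 4.32% of all). The main fit gave 18 (13.1%, against 9.88% of all). Leaving out each library gave 9 to 20, the lowest without KO M2 (6.57% to 14.6%, against 5.2% to 12.3% of all). With KO F2 entered as male, chosen after seeing the data, 17 OCRs of the window had an unadjusted p under 0.05 and 0 were called. The 17 were 12.4% of the window, against 12.8% of all OCRs in that fit. Over the whole table, DESeq2 called 41 of the 51803 repeat rows to which it gave an adjusted p. A fit without a count filter called 20 of 4129555, and the main fit called 0. The 13 tested rows of the interval got no adjusted p in DESeq2, so they could not be called there. None of the 13 was called under any other alternative. With 2 surrogate variables the log2 fold change, KO minus WT, took the other sign in 9:77868698-77869057 (-0.39), 9:78022967-78023418 (0.38), 9:78335195-78335812 (-0.024), 9:78349688-78350821 (-0.043), 9:78388770-78389936 (0.005), 9:78395818-78396758 (-0.081), 9:78420949-78421744 (0.10) and 9:78439776-78440099 (-0.075), all with an adjusted p of 1, and the cause was not tested. It did so with 1 surrogate variable in 9:78388770-78389936 (0.016) and with the table total as library size in 9:78504161-78504477 (-0.004). Leaving out each library gave 9:78334491-78335183 -0.043 to 0.197, 9:78388770-78389936 -0.101 to 0.076, 9:78504161-78504477 -0.012 to 0.094 and the B1_Mus2 element -0.253 to 0.049. Leaving out each library, the log2 ratio of mean CPM, KO over WT, stayed between 0.19 and 0.36 for the interval and -0.05 and 0.16 for the repeat rows of the gene stretch.

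Replicate numbers did not pair the libraries: deviations from the genotype means correlated at 0.586 for F1, 0.606 for F2, -0.293 for M1 and -0.446 for M2, and F1 and F2 alone correlated best with their own number. Some OCRs of the window varied widely within both genotypes. OCR 9:77956111-77956672, picked after its values were seen, held 14.14, 1.308, 8.203 and 2.439 CPM in KO F1, F2, M1 and M2. In WT F1, F2, M1 and M2 it held 10.99, 3.088, 3.119 and 10.96 CPM. A grouping of libraries across genotypes was not tested. With a replicate block, 0 OCRs were called, and 19 of the window had an unadjusted p under 0.05 (13.9%, against 12.4% of all OCRs). Depth limits the fainter rows: only 13 of the 92 repeat rows held enough counts to be tested.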
